A study of Arabidopsis thaliana with 6 samples.

Results

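The serine carboxypeptidase-like (SCPL) and beta-glucosidase (BGLU) genes of Arabidopsis thaliana were followed across 6 seedling arrays. A gene was a member when the probe set was listed for 1 gene and its symbol or a synonym was SCPL or BGLU followed by a number. This gave 51 genes, 29 SCPL and 22 BGLU, each with 1 probe set, out of 22746 probe sets tested and 13513 listed for 1 gene. BGLU23 entered through a synonym of PYK10 and BGLU20 through a synonym of ATA27. Other genes of both families exist and were not analysed here.

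Both families meet in plant specialised metabolism. Serine carboxypeptidase-like proteins share the fold and the serine, aspartate and histidine active site of secreted peptidases. Some of them cut peptides, and others work as acyltransferases that move an acyl group from a glucose ester to an acceptor such as malate or choline. Beta-glucosidases of the BGLU family remove glucose from glucosides, which releases defence compounds, monolignols or hormones from stored forms. A large share of the root beta-glucosidase lies in ER bodies, compartments derived from the endoplasmic reticulum that are typical of Arabidopsis seedlings and roots.

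Total RNA came from 9-day-old seedlings in 3 groups of 2 samples, each sample a biologically independent pool per the design text. In 2 groups the seedlings were of line HY213, mock-treated or estradiol-treated for 8 h. In the third they were wild type, estradiol-treated for the same time. No label states what HY213 carries; it is read here as pER22-AGL24, the only non-wild-type line of the design text. pER22 belongs to the XVE system, in which estradiol switches on the transgene. The ecotype is given as Columbia for 5 samples and is not labelled for mock replicate 1. No group holds wild type without estradiol, so a response to the chemical alone cannot be told apart from AGL24 induction or line.

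AGL24, the MADS-box gene placed under estradiol control, read 106 and 401 in estradiol-treated HY213, 4.98 and 4.87 in mock, and 5.05 and 4.60 in wild type. The arrays of the 3 groups had median intensities of 6.95 to 7.27. The 27 probe sets for Bacillus transcripts mark the background, and the highest of them stood at 5.99 to 6.22 on the replicate 1 arrays and at 5.14 to 5.31 on the replicate 2 arrays. Of all probe sets, 58.2% to 60.5% read above that value on the replicate 1 arrays and 69.0% to 72.7% on the replicate 2 arrays. Intensities of different probe sets depend on their probes, so levels are compared between arrays and not between genes.

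Most members read above the background on only some arrays or on none. Above the highest Bacillus control on all 6 arrays were 13 of 29 SCPL and 8 of 22 BGLU genes, together 41.2% of the members against 53.2% of all probe sets and 47.6% of those listed for 1 gene. A mean over 20 was reached by 21.6% of the members, 26.7% of all probe sets and 21.9% of those listed for 1 gene. On none of the 6 arrays did 10 SCPL and 9 BGLU genes read above it, and 6 SCPL and 5 BGLU genes did so on some arrays.

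**Figure D1:**
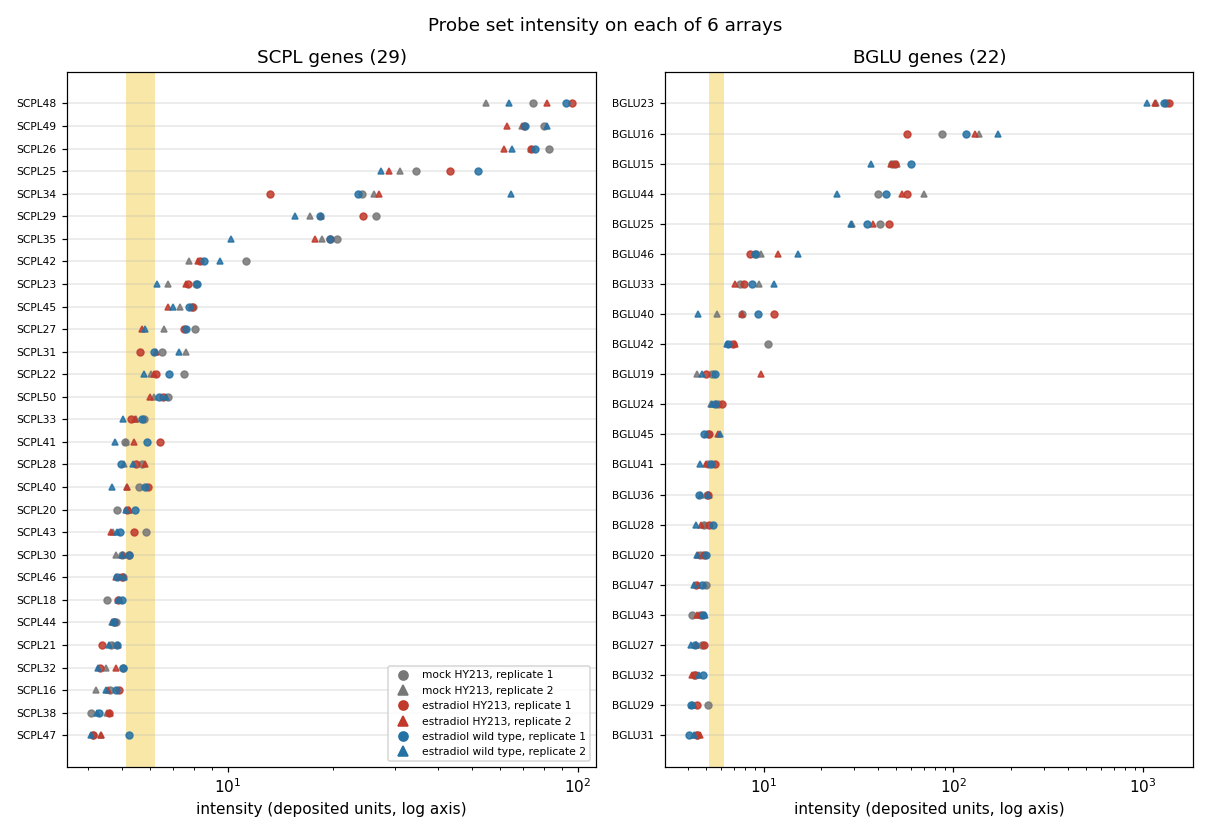
Intensity of the 29 SCPL and 22 BGLU probe sets on each of 6 arrays, on a log axis, with genes ordered by their mean. Circles are replicate 1, triangles replicate 2, and colours the 3 groups. The shaded band spans the highest Bacillus control of each array, 5.14 to 6.22. BGLU23 reads 1044 or more on every array, and most genes in the lower part of each panel lie in or under the band.

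Among the SCPL genes, SCPL49, for which CPY (carboxypeptidase Y) is a synonym, the name of the vacuolar carboxypeptidase of yeast, read 80.1 and 69.3 in mock HY213 (replicates 1 and 2), 70.1 and 62.7 in estradiol HY213 and 70.7 and 81.6 in estradiol wild type. SCPL26 read 83.0 and 73.5, 73.8 and 61.8, and 75.8 and 64.8 in the same order. For both genes the highest array stood at 1.30 and 1.34 times the lowest. SCPL48 ranged from 54.6 to 96.2, SCPL25 from 27.5 to 51.9, SCPL29 from 15.6 to 26.6 and SCPL35 from 10.2 to 20.5. SCPL34 had the widest range of the 29, from 13.3 to 64.6, a ratio of 4.87. SCPL42, SCPL23, SCPL45, SCPL27, SCPL22 and SCPL50 also read above the controls on all 6 arrays, between 5.71 and 11.3.

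Among the BGLU genes, BGLU23, known as PYK10, is the main beta-glucosidase of the ER body and hydrolyses indole glucosinolates and the coumarin glucoside scopolin. It read 1320.0 and 1162 in mock HY213, 1374 and 1154 in estradiol HY213 and 1278 and 1044 in estradiol wild type. These 6 values stay within a ratio of 1.32, and in each group the replicate 1 array read higher. BGLU16 ranged from 57.1 to 173 and BGLU44, whose product is known to act on mannosides, from 24.2 to 69.7. BGLU15, linked to the breakdown of flavonol glucosides, ranged from 37.0 to 60.1. It read 47.6 and 50.2 in mock HY213, 49.2 and 46.8 in estradiol HY213 and 60.1 and 37.0 in estradiol wild type. BGLU25 read 28.9 to 45.8. Of the genes for monolignol glucosidases, which free coniferyl and sinapyl alcohol for lignin, BGLU46 read 8.45 to 15.1, while BGLU45 read above the controls on 2 arrays only. BGLU33, whose product releases abscisic acid from its glucose ester in the vacuole, read 7.09 to 11.4. BGLU42, linked to the release of scopoletin from scopolin in roots, read 6.42 to 10.5, its highest value on mock replicate 1.

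Several members lie beside each other in the RefSeq gene order (TAIR10.1, used for names and order only), and 5 pairs with no protein-coding gene between them differed in how many arrays stood above the background. BGLU16, BGLU44, BGLU15, BGLU46 and SCPL26 read above the controls on 6 of 6 arrays. Their neighbours BGLU27, BGLU43 and BGLU28 did so on 0 arrays, and BGLU45 and SCPL28 on 2. SCPL22 and SCPL23, also adjacent, both read above it on 6 arrays, and the adjacent pairs BGLU31 and BGLU32, and BGLU28 and BGLU29, on 0. These counts depend on the probes of each probe set, so they do not compare the levels of neighbouring genes. Adjacent pairs of other genes were not counted.

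The first comparison, estradiol against mock in HY213, asks what follows the switching-on of AGL24, and it also takes in effects of the chemical. No SCPL or BGLU transcript could be separated from the spread between replicates. limma on log2(value + 16), with Benjamini-Hochberg adjustment over 22746 probe sets and a threshold of 0.05, called 0 of 51 members and 0% of all probe sets, with or without replicate number as a block. AGL24 itself, at 106 and 401 against 4.98 and 4.87, was among the probe sets not called. The lack of a call therefore does not show that a transcript was unchanged. At an unadjusted p under 0.05 there were 0 members (1.2% of all probe sets) without the block, and 2 members (4.23% of all probe sets) with it. The median log2 difference was -0.0059 over the SCPL genes and 0.0060 over the BGLU genes, against -0.00044 over all probe sets.

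The 2 members with a blocked p under 0.05 were SCPL48 and BGLU40. SCPL48 read 96.2 and 81.8 after estradiol (mean 89.0 ± 10.1, SD, n = 2) and 74.6 and 54.6 in mock (64.6 ± 14.1, SD, n = 2). Both estradiol arrays lay above both mock arrays, by 1.29-fold in replicate 1 and 1.50-fold in replicate 2. The log2 difference was 0.39 ± 0.25 (SE), with an adjusted p of 1 in limma, and with the block 0.39 ± 0.15 (SE), unadjusted p 0.0321, adjusted p 0.998. The estradiol wild-type arrays, at 92.5 and 63.5, also read above mock within each replicate, by 1.24- and 1.16-fold. For BGLU40 the estradiol arrays gave 11.3 and 7.71 and the mock arrays 7.73 and 5.70, so that the groups overlapped while each replicate showed the higher value after estradiol (1.47- and 1.35-fold). Its log2 difference was 0.17 ± 0.12 (SE), and with the block the unadjusted p was 0.0106 and the adjusted p 0.998.

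Further members above background were not called either. For BGLU25 the estradiol arrays gave 45.8 and 37.7 and the mock arrays 41.0 and 29.4. BGLU16 read 57.1 and 129.6 against 87.1 and 136, lower in both replicates, and BGLU44 57.0 and 53.3 against 40.0 and 69.7, so that the BGLU44 ratio was 1.42 in replicate 1 and 0.764 in replicate 2. SCPL34 read 13.3 and 27.1 against 24.2 and 26.1. BGLU23 was nearly level, with ratios of 1.04 and 0.993 and a log2 difference of 0.024 ± 0.159 (SE). By unadjusted p without the block, the 3 smallest were BGLU47, a relative of the monolignol glucosidases (4.39 and 4.53 against 5.01 and 4.90, p 0.0587), BGLU19 (4.997 and 9.74 against 5.36 and 4.45, p 0.128) and SCPL31 (5.63 and 6.27 against 6.50 and 7.59, p 0.144). All BGLU47 values lay under the highest Bacillus control, and BGLU19 was above it on 1 array only, estradiol HY213 replicate 2. Without overlap between the 2 groups were 9 of 51 members, 6 higher and 3 lower, where 23.6% of all probe sets were (12.8% higher, 10.7% lower). Higher after estradiol in both replicates were 11 members (25.6% of all probe sets) and lower in both 13 (24.2%).

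**Figure D2:**
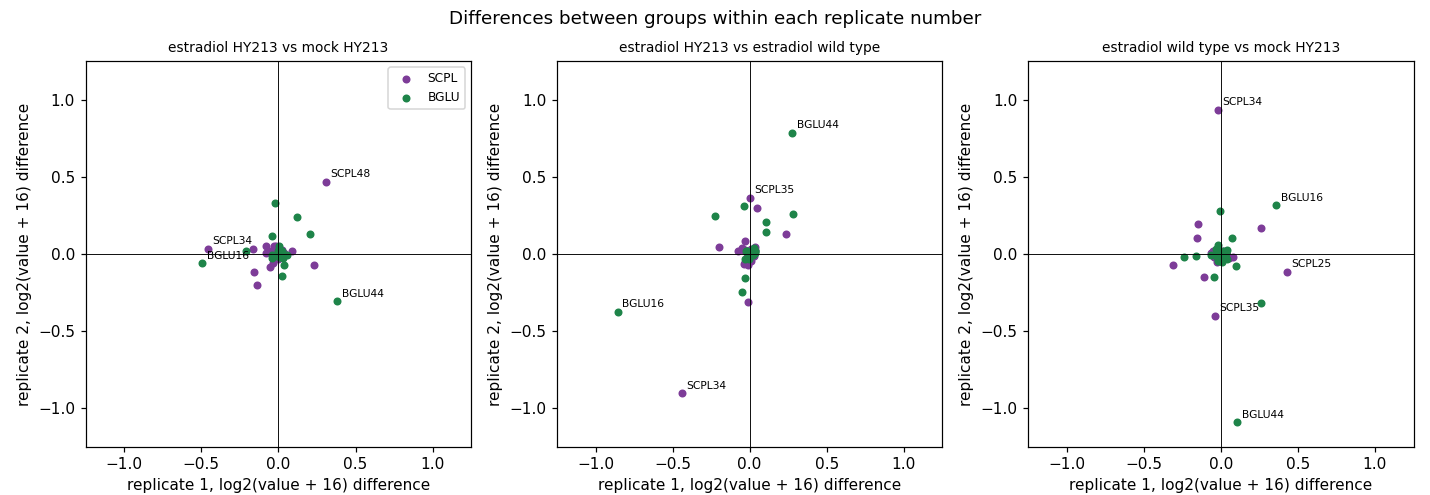
Difference on the log2(value + 16) scale for each of the 51 genes, replicate 1 on the x axis and replicate 2 on the y axis, in the 3 comparisons of groups. SCPL48 lies in the upper right of the first panel, SCPL34 and BGLU16 in the lower left and BGLU44 in the upper right of the second, and in the third BGLU44 and SCPL34 lie near 0 in replicate 1 and far from it in replicate 2.

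The second comparison, estradiol HY213 against estradiol wild type, holds the chemical constant. limma called 0 of 51 members and 0% of all probe sets with or without the block. AGL24 was not called here either, so again the lack of a call does not show an unchanged transcript. With the block, 5 of 51 members had an unadjusted p under 0.05, against 3.63% of all probe sets: SCPL34, BGLU16, BGLU40, BGLU33 and BGLU25, each with an adjusted p of 0.998. Without the block there were 0 such members (0.774% of all probe sets), and the adjusted p of every member was 1. The median log2 difference was -0.0039 over the SCPL genes and 0.016 over the BGLU genes, against 0.00047 over all probe sets.

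SCPL34 read 13.3 and 27.1 in HY213 (20.2 ± 9.77, SD, n = 2) and 23.6 and 64.6 in wild type (44.1 ± 28.9, SD, n = 2). HY213 read 0.561 and 0.419 times the wild type within the replicates, and the groups overlapped, with both replicate 2 arrays reading higher. The log2 difference was -0.67 ± 0.34 (SE), with an unadjusted p of 0.0965 without the block and 0.00807 with it. BGLU16 gave 57.1 and 129.6 for HY213, with wild type at 116 and 173, which is 0.491 and 0.750 times, with the same pattern of overlap. Its log2 difference was -0.62 ± 0.40 (SE), unadjusted p 0.175, and 0.0094 with the block. Both values depend on single arrays: SCPL34 gave -0.16 without wild-type replicate 2 and -1.18 without wild-type replicate 1, and BGLU16 gave -0.12 without HY213 estradiol replicate 1 and -1.11 without HY213 estradiol replicate 2. The mock HY213 arrays of BGLU16, at 87.1 and 136, lay between the estradiol groups in both replicates.

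BGLU44 read 57.0 and 53.3 in HY213 and 44.3 and 24.2 in wild type, without overlap, and the ratio went from 1.29 in replicate 1 to 2.20 in replicate 2. The log2 difference was 0.53 ± 0.28 (SE), unadjusted p 0.105, and 0.0597 with the block, and it was 0.24 without wild-type replicate 2 and 0.82 without wild-type replicate 1. BGLU25 read 45.8 and 37.7 against 34.9 and 28.9, 1.31- and 1.30-fold, without overlap. The log2 difference was 0.27 ± 0.18 (SE), unadjusted p 0.179, and 0.0417 with the block. BGLU33, the abscisic acid glucose ester hydrolase gene, read 7.85 and 7.09 against 8.73 and 11.4, lower in both replicates and without overlap (log2 difference -0.15 ± 0.07, SE, unadjusted p 0.087, and 0.0366 with the block). BGLU40 read 11.3 and 7.71 against 9.36 and 4.52, the last of these under the controls, and without that array its log2 difference of 0.16 was 0.0054.

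SCPL29 read 24.4 and 18.5 against 18.3 and 15.6, 1.33- and 1.19-fold, while mock HY213 read 26.6 and 17.3. BGLU23 read 1.07- and 1.11-fold higher in HY213 than in wild type, with a log2 difference of 0.12 ± 0.16 (SE). The 3 smallest unadjusted p without the block belonged to BGLU32 (4.37 and 4.18 against 4.77 and 4.59, p 0.0544), BGLU31 (4.44 and 4.64 against 4.06 and 4.32, p 0.0839) and BGLU33. All BGLU31 and BGLU32 values lay under the highest Bacillus control, so those differences lie within the background. Without overlap were 14 of 51 members, 9 higher and 5 lower in HY213, where 23.2% of all probe sets were (12.7% higher, 10.5% lower). Higher in HY213 in both replicates were 17 members (27.4% of all probe sets) and lower in both 11 (25.4%).

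**Figure D3:**
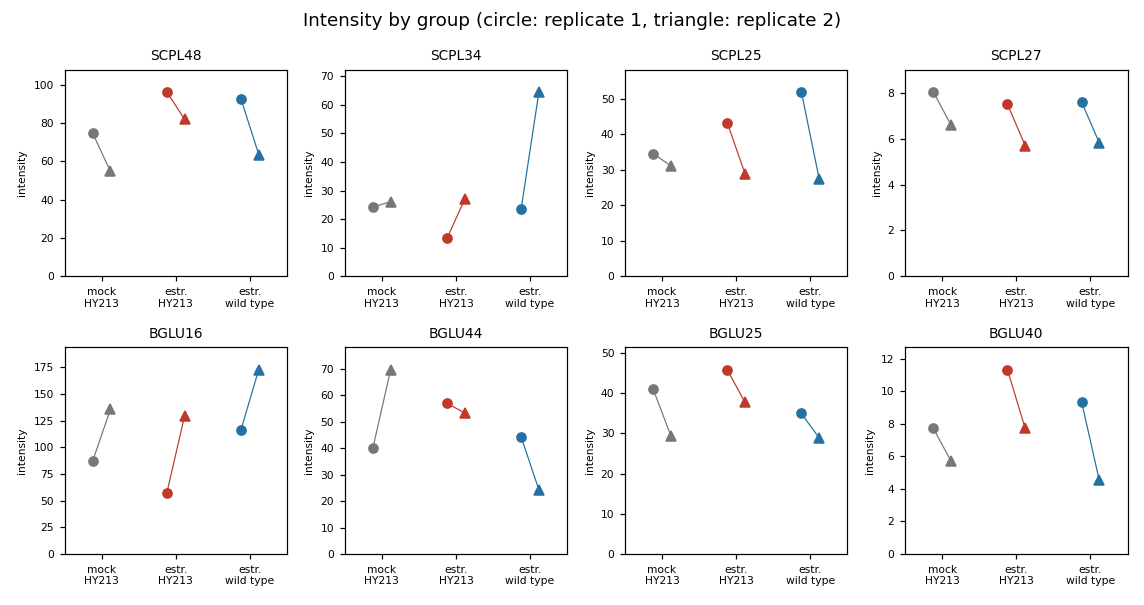
Intensity of 4 SCPL and 4 BGLU genes by group, on linear axes from 0; circles are replicate 1, triangles replicate 2, and a line joins the 2 arrays of a group. SCPL34 and BGLU16 have all replicate 2 arrays above the replicate 1 array of their group, SCPL25, SCPL27, SCPL48, BGLU25 and BGLU40 have all of them below, and BGLU44 differs in direction between groups.

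The remaining contrast, estradiol wild type against mock HY213, mixes line and chemical. limma again called 0 of 51 members and 0% of all probe sets with or without the block, and 1 member had a blocked p under 0.05 (5.34% of all probe sets), SCPL34 (p 0.0445), at 23.6 and 64.6 against 24.2 and 26.1. Its replicates differed: the ratio was 0.976 in replicate 1 and 2.47 in replicate 2, so the value rests on the wild-type replicate 2 array. BGLU44 read 44.3 and 24.2 against 40.0 and 69.7, also apart in replicate 2 only (ratios 1.11 and 0.347). BGLU16 read 116 and 173 against 87.1 and 136, 1.33- and 1.27-fold. BGLU42 read 6.50 and 6.42 against 10.5 and 6.72, without overlap. The 3 smallest unadjusted p without the block were those of BGLU43 (4.77 and 4.91 against 4.17 and 4.55, p 0.0617), BGLU47 (4.71 and 4.29 against 5.01 and 4.90, p 0.0753) and BGLU29 (4.17 and 4.20 against 5.07 and 4.29, p 0.116), all under the controls on every array. Without overlap were 8 of 51 members, 3 higher and 5 lower, where 22% of all probe sets were (11.4% higher, 10.6% lower). Higher in wild type in both replicates were 8 members (24% of all probe sets) and lower in both 15 (24.2%). At an unadjusted p under 0.05 without the block there were 0 members, against 1.18% of all probe sets. The 3 comparisons share arrays, so their values are not independent of each other.

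The replicate numbers, which in the design text stand for independent pools, gave the only calls among the members. The difference was tested as a term beside the group, 3 arrays against 3. limma called 3 of 51 members at an adjusted p of 0.05, 1 higher and 2 lower in replicate 2, while 11% of all probe sets were called (6.47% higher, 4.57% lower). The share of members called, 5.88%, was below that of all probe sets. BGLU16 was higher in replicate 2, and BGLU40 and SCPL27 were lower.

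BGLU16 read 87.1, 57.1 and 116 on the replicate 1 arrays of mock HY213, estradiol HY213 and estradiol wild type (mean 86.8 ± 29.6, SD, n = 3) and 136, 129.6 and 173 on the replicate 2 arrays (146 ± 23.4, SD, n = 3). Each SD runs over the 3 groups and includes their differences, which the model takes out. All 3 replicate 2 arrays lay above all 3 replicate 1 arrays, and the log2 difference was 0.69 ± 0.15 (SE), adjusted p 0.0254 in limma. BGLU40 read 7.73, 11.3 and 9.36 in replicate 1 and 5.70, 7.71 and 4.52 in replicate 2, again without overlap, with a log2 difference of -0.21 ± 0.04 (SE) and an adjusted p of 0.0172. SCPL27 read 8.06, 7.52 and 7.62 against 6.60, 5.71 and 5.82, with a log2 difference of -0.11 ± 0.03 (SE) and an adjusted p of 0.0435. SCPL27 and BGLU40 lay close to the Bacillus controls, whose medians were also lower on the replicate 2 arrays (4.54 to 4.60) than on the replicate 1 arrays (4.68 to 4.71); the part of this shift in the SCPL27 and BGLU40 values was not tested. The calls depend on the arrays used: 0 of 51 members passed without any 1 of the 4 estradiol arrays, and 10 passed without either mock array. With quantile normalization 2 passed, BGLU40 and BGLU23.

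The next members by p did not pass. SCPL34 read 24.2, 13.3 and 23.6 in replicate 1 and 26.1, 27.1 and 64.6 in replicate 2, without overlap (log2 difference 0.55 ± 0.16, SE, adjusted p 0.0622). SCPL25 read 34.5, 43.2 and 51.9 in replicate 1 and 31.1, 28.9 and 27.5 in replicate 2, without overlap and lower in replicate 2 (-0.38 ± 0.12, SE, adjusted p 0.0757). In both genes the gap was widest in wild type, by a ratio of 2.73 for SCPL34 and 0.530 for SCPL25, and narrowest in mock HY213. SCPL29 read 0.648, 0.761 and 0.853 times its replicate 1 value in replicate 2 (adjusted p 0.0834). BGLU46, the monolignol glucosidase gene, read 9.12, 8.45 and 9.00 against 9.70, 11.9 and 15.1, higher in replicate 2 (adjusted p 0.103).

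Over the families, 13 SCPL genes read lower in replicate 2 in all 3 groups and 2 read higher, SCPL34 and SCPL31. Of the BGLU genes 6 read lower in all 3 groups and 2 higher, BGLU16 and BGLU46. Together 19 of 51 read lower throughout, against 28% of all probe sets, and 4 read higher, against 22.9%. Without overlap between the replicate numbers were 16 members, 3 higher and 13 lower in replicate 2, where 35% of all probe sets were (16.5% higher, 18.5% lower). At an unadjusted p under 0.05 there were 13 members, against 28.1% of all probe sets. Several of the 19 lie at the background, among them SCPL16, SCPL30, SCPL40, SCPL43, BGLU27 and BGLU28. Of the 21 members above the controls on all 6 arrays, 11 read lower throughout and 3 higher. Among all probe sets at that level the shares were 26.9% and 32.7%. The sulfur-responsive gene BGLU28 read 4.89, 5.13 and 5.43 in replicate 1 and 4.88, 4.69 and 4.38 in replicate 2, under the controls throughout.

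**Figure D4:**
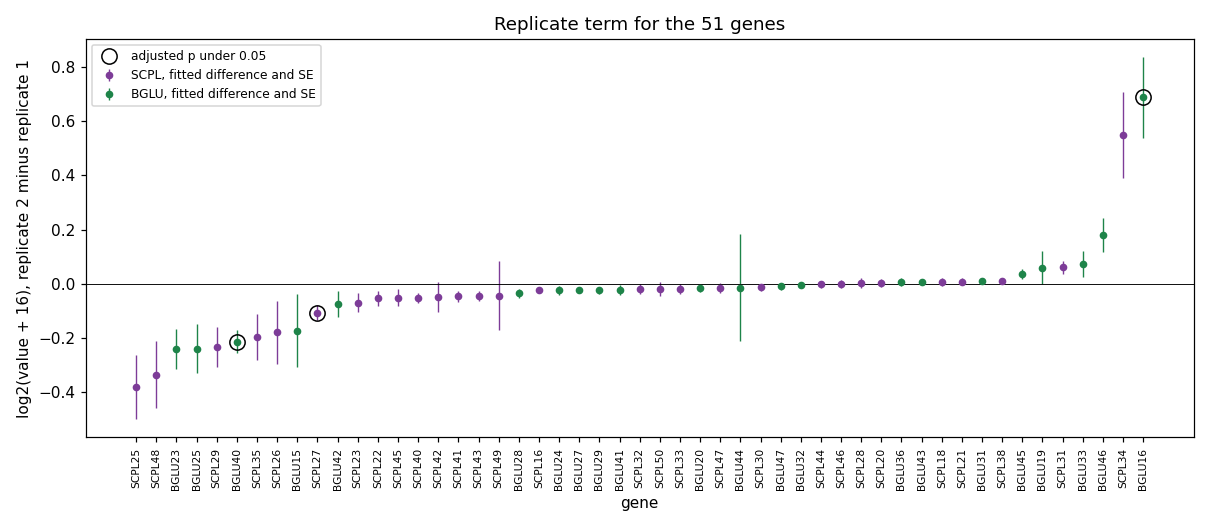
Fitted difference between replicate 2 and replicate 1 on the log2(value + 16) scale for the 51 genes, with bars of 1 SE, ordered from the lowest to the highest. Open circles mark the 3 genes with an adjusted p under 0.05, BGLU16 at 0.69, BGLU40 at -0.21 and SCPL27 at -0.11.

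PYK10 did not reach the threshold, although its arrays separated by replicate number. BGLU23 read 1320.0, 1374 and 1278 in replicate 1 (1324 ± 48.1, SD over the 3 groups, n = 3) and 1162, 1154 and 1044 in replicate 2 (1120.2 ± 66.0, SD over the 3 groups, n = 3). The 2 sets did not overlap, the ratios were 0.880, 0.840 and 0.817, and the log2 difference was -0.24 ± 0.07 (SE), adjusted p 0.0765 in limma. Genes of the same compartment came from a list of 19 names for the ER body and the PYK10 complex. Of these, 6 were measured, which here and below means matched by name to a probe set listed for 1 gene. They gave 2 calls, both lower in replicate 2, where 11% of all probe sets were called and 4.57% were called lower. JAL22, a jacalin-related lectin of the family found with PYK10 in its aggregates, read 121, 179 and 124 in replicate 1 and 38.9, 82.7 and 63.4 in replicate 2 (log2 difference -1.04 ± 0.14, SE, adjusted p 0.0052). JAL33, a lectin of the same kind, read 426, 434 and 387 against 242, 306 and 272 (-0.58 ± 0.13, SE, adjusted p 0.0291). NAI2, which is needed for ER bodies to form, read 438, 449 and 368 against 310.0, 334 and 313 (-0.37 ± 0.13, SE, adjusted p 0.0983). JAL34 read 422, 459 and 469.6 against 355, 402 and 379 (adjusted p 0.223). NAI1, the bHLH regulator of ER body genes, and JAL23 read 4.46 to 6.27, around the background. Between the groups 0 of these 6 genes were called in any of the 3 comparisons, and JAL22 had the widest estradiol-to-mock difference, at 0.68 on the log2(value + 16) scale with an unadjusted p of 0.261, and 0.00472 with the block (adjusted p 0.998).

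**Figure D5:**
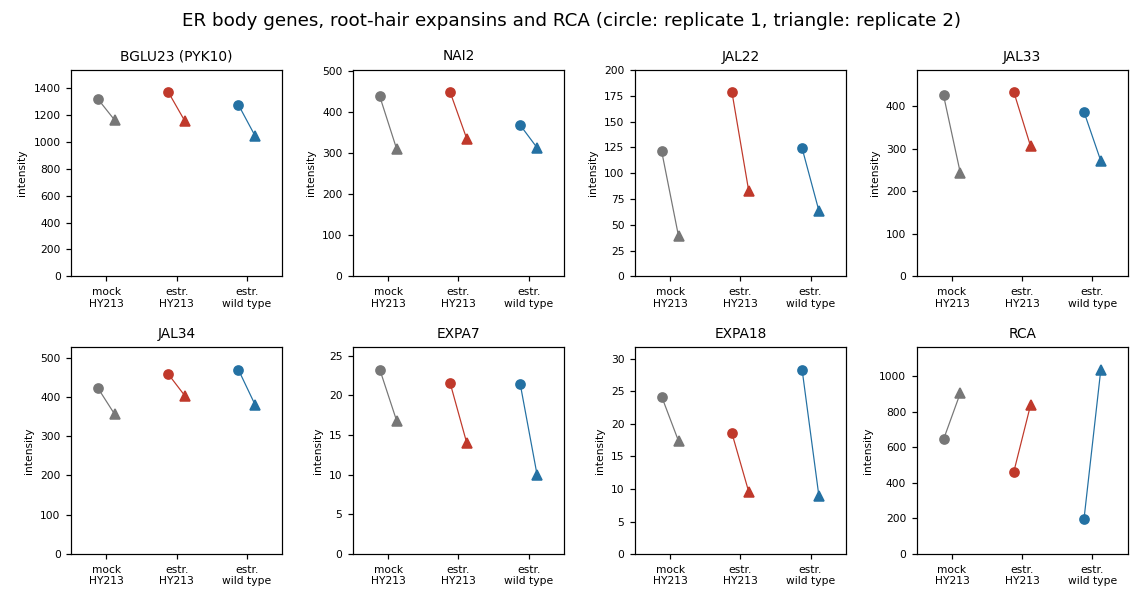
Intensity of BGLU23, 4 other ER body genes, the root-hair expansins EXPA7 and EXPA18 and the Rubisco activase gene RCA by group, on linear axes from 0; circles are replicate 1, triangles replicate 2. In each group the ER body and expansin genes read lower in replicate 2, and RCA read higher.

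Of 62 names of organ markers, 7 were measured. Among these, 4 were called for the replicate number, 2 higher and 2 lower in replicate 2, against 11% of all probe sets. They include the 3 root genes: the root-hair expansins EXPA7 (23.2, 21.6 and 21.4 in replicate 1, 16.8, 13.9 and 9.99 in replicate 2) and EXPA18 (24.2, 18.6 and 28.4 against 17.4, 9.56 and 8.87) were lower in replicate 2, and the peroxidase gene AT5G66390 (10.3, 19.7 and 12.4 against 11.6, 50.6 and 29.0) was higher, with adjusted p of 0.0188, 0.0199 and 0.0436. Of 3 green-shoot genes, 1 was called, RCA, higher in replicate 2 (644, 461 and 195 against 906, 838 and 1036, adjusted p 0.0375), while LHCB4.1 and PSAN, genes of the photosystems, had adjusted p of 0.0929 and 0.0950. The summed root markers read 57.8 to 62.2 in replicate 1 and 45.8 to 74.1 in replicate 2, and the summed shoot markers 1504 to 2006 and 2351 to 2785. The root sum adds genes called in opposite directions, so it does not show a level root share. Its highest value, 74.1 in estradiol HY213 replicate 2, includes 50.6 from AT5G66390. The markers thus show both organs on every array, and their part in the replicate difference of BGLU23 and the other members was not tested. In bulk RNA, fewer cells of a type and less RNA per cell cannot be told apart. The 1 measured seed gene, PAP85, a vicilin-like storage protein gene, read 42.8 in estradiol HY213 replicate 2 and 5.01 to 9.90 elsewhere (unadjusted p 0.0186 for the replicate number, not called after adjustment). The same array gave the one BGLU19 value above the controls, 9.74.

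The partner pathways of both families could be followed for few genes. Of 184 names in 10 pathway lists, 30 genes were measured, and 3 lists, for myrosinase partners, sulfur response and dark-induced genes, had none. Among the 22746 probe sets, 8730 were not listed for a gene and 503 were listed for several. A gene missing here may therefore still have a probe set on the arrays. The brassinosteroid list was chosen for SCPL24 and the dark-induced list for BGLU30, and neither gene is a member here. In each of the 3 comparisons of groups 0 of the 30 were called, as were 0% of all probe sets. For the replicate number 5 were called, 2 higher and 3 lower in replicate 2, against 11% of all probe sets. Besides JAL22 and JAL33 these were BCAT4, ALDH2C4 and UGT84A3. None of these 5 calls, nor of the 4 calls among organ markers, held with a prior without trend (adjusted p 0.062 to 0.247). BCAT4, which starts the chain elongation of methionine for glucosinolates, read 282, 217 and 193 in replicate 1 and 212, 53.4 and 35.1 in replicate 2 (log2 difference -1.39 ± 0.28, SE, adjusted p 0.021), the only call among the 4 measured genes of the glucosinolate list, which were BCAT4, the glucosyltransferase gene UGT74B1 and the transporter genes GTR1 and GTR2. In the sinapate and phenylpropanoid list 2 of 7 genes were called, both higher in replicate 2. ALDH2C4, which oxidises sinapaldehyde and coniferaldehyde to the acids, read 161, 152 and 108 against 274, 283 and 289 (0.95 ± 0.16, SE, adjusted p 0.0109). UGT84A3, which makes glucose esters of hydroxycinnamic acids, the acyl donors of SCPL acyltransferases, read 19.2, 13.9 and 16.6 against 25.8, 25.3 and 27.1 (0.37 ± 0.07, SE, adjusted p 0.0201). UGT72E1, which glucosylates monolignols or their aldehydes, the reverse of the BGLU45 and BGLU46 step, read 175, 212 and 208 against 158, 98.6 and 80.4 (adjusted p 0.0512). In the flavonoid, coumarin and monolignol, abscisic acid and brassinosteroid lists 0 of 5, 4, 3 and 1 measured genes were called. Of the 5 in the flavonoid list, 1 was matched by the symbol CHI alone and is a chitinase gene by its RefSeq synonyms, not chalcone isomerase; it is also counted among the 30 and was called in no comparison. UGT78D2, a flavonoid glucosyltransferase, read 8.18, 8.45 and 8.03 against 7.27, 6.64 and 6.37 (adjusted p 0.116). UGT71C5, which makes the abscisic acid glucose ester that BGLU33 hydrolyses, read 24.7, 26.0 and 29.3 against 29.1, 28.9 and 35.9 (adjusted p 0.273).

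The remaining members gave values close to the background on most arrays. SCPL31 and BGLU24 read above the highest Bacillus control on 4 arrays, SCPL33 and SCPL41 on 2, and SCPL20, SCPL40 and BGLU41 on 1. SCPL41 read 5.08 and 5.13 in mock, 6.39 and 5.41 in estradiol HY213 and 5.89 and 4.77 in wild type, and SCPL40 read 5.57 and 5.17, 5.92 and 5.17, and 5.81 and 4.66. SCPL18, SCPL21, SCPL32, SCPL38, SCPL44, SCPL46 and SCPL47 stayed under it on all arrays, at 4.08 to 5.22, as did BGLU36 and the tapetum gene BGLU20 (ATA27), at 4.44 to 5.17. For the genes named here that stayed under it on all arrays, no level above background was seen. No direction is drawn from their differences beyond the counts given.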

How the data were processed

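The authors deposited 1 linear intensity per probe set for each of 6 Affymetrix arrays. MAS5 and RMA are named in the submitters' processing notes, without a role or version, so the background correction behind the values is not known. Of 22810 probe sets, 64 controls were left out. Members were matched through the platform annotation and RefSeq symbols and synonyms; members, lists and tests were chosen with earlier results of these data known. Differences were fitted with limma 3.58.1 (lmFit, eBayes with trend, R 4.3.3) on log2(value + 16) over 22746 probe sets with Benjamini-Hochberg adjustment. The added 16 understates the change of low genes. For BGLU40 in estradiol against mock HY213, the log2 difference was 0.17 with it and 0.49 with no pseudocount. The 3 comparisons of groups came from 1 model of 3 groups, and the replicate number was tested beside the group. The code was tested on simulated data. Deviations from the group means correlated at 0.665 to 0.822 between groups for equal replicate numbers, over 22746 probe sets, so values with replicate number as a block are also given. No label ties equal numbers across groups. An exact permutation test cannot go below p = 0.333 with 2 arrays against 2, or 0.1 with 3 against 3, two-sided. Columns of other samples numbered 0.

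Genes were described in full by rule: the 6 with the highest mean in each family, the 3 smallest p in each comparison of groups, 4 per family for the replicate number, and every member called in any fit. SCPL35, BGLU42 and the partner genes with values outside that rule were chosen after their values were seen. Alternatives covered the pseudocount, normalization, prior, filter, arrays used and threshold. Protein and promoter sequences were not used here. The precision is limited by the number of arrays.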

Additional observations from a re-analysis of the deposited data

How the results depend on the processing

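In the 3 comparisons of groups, 0 of 51 members were called under every alternative run, the replicate block included (0, 0 and 0 probe sets called). Leaving out each array in turn in the first comparison (estradiol and mock HY213) called 0 to 13 probe sets. In the second (HY213 and wild type, both with estradiol) it called 0 to 16, and in the third 0. No pseudocount with the replicate block, chosen after seeing the data, gave 1 probe set called in each of the first 2. For the replicate number, leaving out each array gave 637 to 4062 probe sets and 0 to 10 members, a prior without trend 431 and 0, and an adjusted p threshold of 0.1 gave 4216 and 8. BGLU16 lost its call with quantile normalization (adjusted p 0.0538) and BGLU16 and BGLU40 with the prior without trend (0.101 and 0.118). SCPL27 lost its call with a pseudocount of 64 (0.0580), quantile normalization (0.0633), median scaling (0.0605) and the prior without trend (0.0893). BGLU23 passed with a pseudocount of 64 (0.0461) and quantile normalization (0.0324). With the prior without trend all 9 called partner and organ genes lost their calls: JAL22 (0.0620), JAL33 (0.0719), BCAT4 (0.186), ALDH2C4 (0.0844), UGT84A3 (0.0795), EXPA7 (0.0989), EXPA18 (0.161), AT5G66390 (0.242) and RCA (0.247). JAL33 (0.0543) and AT5G66390 (0.0642) also did with a pseudocount of 64 and RCA with quantile normalization (0.0506), where NAI2 passed (0.0426). Each of the 9 except JAL22 lost its call without 1 or another array, in 2 to 4 of 6 such runs. The causes were not tested. The SCPL48 difference between wild type and mock reversed in 1 case, at -0.0098 without wild-type replicate 1, and left-out arrays took it up to 0.44. In estradiol HY213 against estradiol wild type, leaving out arrays moved SCPL34 between -1.18 and -0.16, BGLU16 between -1.11 and -0.12, BGLU44 between 0.24 and 0.82, BGLU40 between 0.0054 and 0.31, BGLU25 between 0.17 and 0.37 and BGLU33 between -0.22 and -0.076. In estradiol against mock, SCPL48 moved between 0.21 and 0.57, BGLU40 between 0.064 and 0.27 and BGLU25 between 0.015 and 0.34. Above the Bacillus controls on only some arrays were 11 of 51 members, and on none 19.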
